A study of Mus musculus with 20 samples.

Results

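The genes described here encode the ligands and receptors of axon guidance: semaphorins 3 to 7, plexins, neuropilins, ephrins, Eph receptors, Slits, Robos, netrins and the netrin receptors of the Dcc and Unc5 families. They were taken by gene symbol from the annotation of the array, by a rule that uses no measured value, though earlier results of these data were known. The symbols picked out 101 of the 39429 probes that are not controls and 71 of the 30222 gene names. All 71 names matched a RefSeq gene symbol. The pattern of symbols also caught *Unc50* and *Unc5cl*, which are not netrin receptors. They stay in the counts because the rule picked them, and are named where they matter.

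The cells were dorsal root ganglion (DRG) neurons of NIH Swiss mice, taken at embryonic day 13.5 and grown with nerve growth factor for 3 to 4 weeks in chambers that separate cell bodies from axons. The growth protocol names the spinal cord as the source, whereas the labels give DRG neurons. An inhibitor of cell division kept down non-neuronal cells, and by the study's methods 5 cultures were pooled for each condition and nerve growth factor and serum were withdrawn overnight before stimulation. Action potentials were evoked as 18 every 1 min (18/1) or 90 every 5 min (90/5), patterns with the same total number of pulses, for 2 hr or 5 hr, and control neurons were not stimulated. Each of these 5 conditions had 4 samples. The question was whether transcripts respond to the temporal pattern of firing as well as to firing itself. Because cultures were pooled, the p-values measure the spread between these samples, which may be partly technical.

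RNA was read on 10 two-colour arrays of 3 slides, with both colours of an array carrying samples of the same condition. Unstimulated and 18/1 2 hr samples shared slide 1, 18/1 5 hr and 90/5 2 hr samples shared slide 2, and 90/5 5 hr samples had slide 3 to themselves. Thus 18/1 2 hr against unstimulated and 90/5 2 hr against 18/1 5 hr were compared within a slide, and in the other 5 comparisons the effect of the slide and that of the condition cannot be told apart. Levels are normalised log2 signals of single probes, differences are in log2 units, and ± gives the SD over 4 samples. For 18/1 5 hr and 90/5 2 hr, samples are given by array (arrays 5 and 6, arrays 7 and 8) and colour, since the labels do not settle which replicate was in which colour.

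Slide 2 stood apart in spot quality. The 4 samples of 18/1 5 hr had 5319 to 14642 spots marked as not uniform, those of 90/5 2 hr had 45 to 6476, and those of slides 1 and 3 had 6 to 85. Saturated spots numbered 840 to 2800 per sample on slide 2, 0 to 486 on slide 1 and 0 on slide 3. Correlations between samples of one condition were 0.955 to 0.994. The part of spot quality in the results was not tested.

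Of 5 genes listed as known to respond to activity, 3 were tested. The activity genes *Nr4a1* and *Rgs2*, a nuclear receptor and a regulator of G-protein signalling, rose in all 4 stimulated conditions, by 4.54, 4.44, 4.76 and 5.51 for *Nr4a1* and 3.27, 3.63, 3.45 and 3.96 for *Rgs2* (18/1 2 hr, 18/1 5 hr, 90/5 2 hr and 90/5 5 hr over unstimulated). The remaining gene, the immediate early transcription factor *Egr1*, was called in 2 of the 4: it stood at 2.71 (adjusted p = 0.45) at 18/1 2 hr, 1.00 (adjusted p = 0.17) at 18/1 5 hr, 2.71 (adjusted p = 0.0069) at 90/5 2 hr and 3.18 (adjusted p = 0.032) at 90/5 5 hr (SE 0.59). A marker is said to pass in a sample where its spot was uniform and reached 2 times background. All 13 sensory neuron markers on the array (such as *Prph* and *Calca*) passed in the 4 unstimulated samples, and 11 of the 13 in those of 18/1 5 hr. Their summed signal (log2) was 18.98 to 19.10 in unstimulated and 18.73 to 19.30 in 18/1 5 hr samples. Of the 12 tested, 2 were called at 18/1 5 hr over unstimulated, 1 higher and 1 lower, where 44.4% of all genes were called. The differences of the 12 ran from -1.83 to 1.07. Of 10 Schwann and satellite cell markers, 5 passed in all unstimulated samples, and others, among them *Erbb3*, *Foxd3*, *Cdh19* and *Mal*, in none of them. In 18/1 5 hr 2 of the 10 passed in all samples, and their summed signal was 15.18 to 16.41 there against 16.15 to 16.30 in unstimulated samples. Of 6 markers of spinal cord neurons and glia, *Slc18a3* passed in all 4 unstimulated samples, *Gfap* in 2, *Aqp4* in 1, and *Chat*, *Mnx1* and *Olig2* in none. The summed signal of the 6 was 9.77 to 10.06 in unstimulated and 10.03 to 11.64 in 18/1 5 hr samples. *Slc18a3*, the 1 marker of the 6 that was tested, was called lower at 18/1 5 hr, at -1.12. The summed signal of 6 fibroblast markers was 14.08 to 15.45 (log2) in unstimulated samples, 16.03 to 16.23 in 18/1 5 hr and 14.38 to 16.31 in 90/5 2 hr, with 5, 4 and 5 of the 6 passing in all 4 samples. *Pdgfra* passed in no unstimulated sample, and *Col1a1* was 1.79 higher at 18/1 5 hr (SE 0.52). The summed signal of 4 endothelial markers was 11.21 to 11.75 in unstimulated and 9.39 to 9.89 in 18/1 5 hr samples, 10.01 to 10.98 in 90/5 2 hr and 11.88 to 12.57 in 90/5 5 hr, and that of 4 macrophage markers 11.14 to 11.87 over all samples. The part of these cells in the differences below was not tested. In these cultures, fewer cells of a type and less RNA per cell cannot be told apart.

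Guidance molecules steer growing axons by attraction or repulsion at the growth cone. Semaphorins signal through plexins, with neuropilins as co-receptors for most of the secreted class 3 semaphorins. Ephrins, held to the cell surface, bind Eph receptor tyrosine kinases and can signal in both directions. Slits repel axons through Robo receptors, and netrins attract through Dcc or repel through Unc5 receptors. In sensory neurons these systems shape the paths of axons into the spinal cord and the periphery, and several members remain expressed after axons have grown.

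A probe was tested when its spot reached at least 2 times its background and was uniform in all 20 samples. Of the 71 genes, 32 were tested, 27 passed only within at least 1 condition, and 12 passed in none. In the unstimulated samples, 49 genes had a probe that passed in all 4, and 14 had none that passed in any. Both neuropilins were tested, as were 7 of 13 semaphorins of classes 4 to 7, 5 of 9 plexins, 5 of 9 EphA and 2 of 5 EphB receptors, 2 of 5 ephrin-A and 2 of 3 ephrin-B genes. In the remaining families, 3 of 7 class 3 semaphorins, 1 of 3 Slits, 1 of 4 Robos, 2 of 5 netrin receptors and 0 of 4 netrins were tested. One of these netrin receptor probes is labelled *Dcc* but lies elsewhere in the genome (below), and it stays among the 32. The genes that passed in no condition were *Sema3d*, *Sema3e*, *Plxnb1*, *Plxnb3*, *Epha1*, *Robo4*, *Ntn1*, *Ntn4*, *Ntn5*, *Unc5a*, *Unc5d* and *Unc5cl*.

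**Figure D1:**
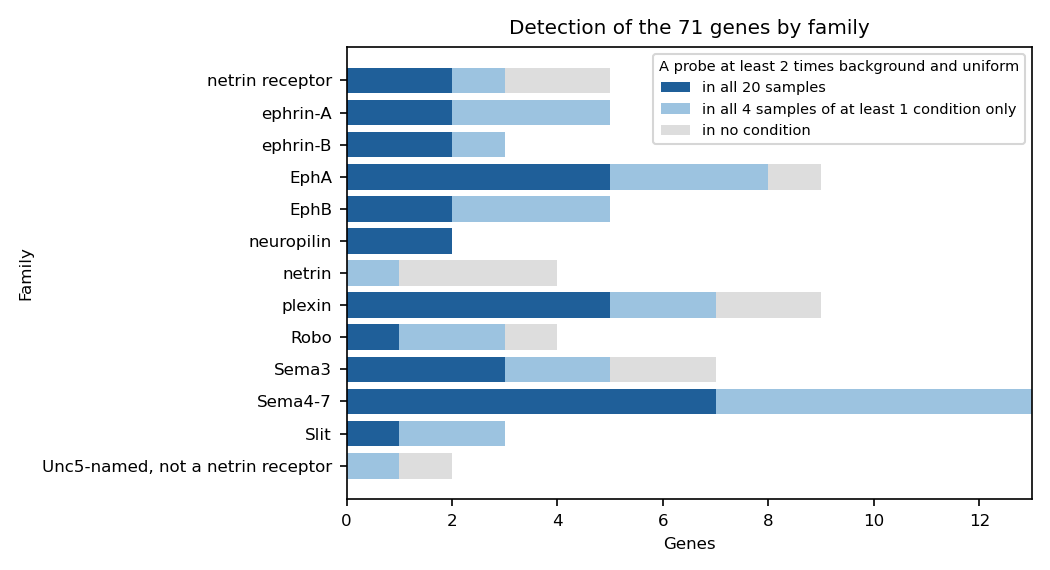
Number of genes (horizontal axis) in each guidance family (vertical axis) by how far their probes passed the filter: in all 20 samples, in all 4 samples of at least 1 condition only, or in no condition. Both neuropilins passed in all samples, and none of the 4 netrins did.

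The probes are 60 bases long, and 25 of the 71 genes had more than 1. Only *Epha5* and *Robo2* had several (3 each) that passed in all samples, and their probes went in different directions in the same comparison (below), so the first 30 bases of each are shown, 5′ to 3′ with mm9 positions as the files give them. Whether they lie in coding sequence or an untranslated region is not given in the sources used here. The *Epha5* probes span 11109 bases and the *Robo2* probes 26013 bases.
Epha5 A_55_P2062911 (chr5:84487348-84487407, minus strand): aatatatgcaggaactgacttacatcgaaa
Epha5 A_55_P2062921 (chr5:84494886-84494945, minus strand): gtaccatttattacctataaatatcatagt
Epha5 A_55_P2100425 (chr5:84483837-84483896, minus strand): gttcccatctgcatttgtttgtgctttcag
Robo2 A_55_P2083919 (chr16:73894653-73894712, minus strand): caaatctgtttgacccattttgaatgagta
Robo2 A_52_P597791 (chr16:73920606-73920665, minus strand): ttgaatatgtgttaaccatccatattaaga
Robo2 A_55_P2083929 (chr16:73897261-73897318, minus strand): gccaatgaccttctcgacattggatatgtg

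*Sema4c*, *Ephb3* and *Epha5* were the 3 genes called in the same 4 comparisons, and the 250 bases before their RefSeq start sites (GRCm38.p6) were searched on both strands for 5 motifs of activity-linked factors: the cAMP response element TGACGTCA, its shorter form TGACG (which the longer one contains), the AP-1 site TGANTCA, the Egr1 site GCGNGGGCG and the E-box CACGTG. Matches are in capitals. *Sema4c* held 1 AP-1 match, *Ephb3* held 1 TGACG match, and *Epha5* held none of the 5. Among 32851 promoters of this length, 6.75% held an AP-1 match, 17.8% TGACG, 1.55% TGACGTCA, 4.70% the Egr1 site and 6.02% the E-box. GC content was 64.4% for *Sema4c*, 65.6% for *Ephb3* and 62.4% for *Epha5*, against a median of 52.4% over all promoters. A match is a description of the sequence only. A promoter entry was at hand for 61 of the 71 genes.
Sema4c (chr1:36558382-36558631, minus strand): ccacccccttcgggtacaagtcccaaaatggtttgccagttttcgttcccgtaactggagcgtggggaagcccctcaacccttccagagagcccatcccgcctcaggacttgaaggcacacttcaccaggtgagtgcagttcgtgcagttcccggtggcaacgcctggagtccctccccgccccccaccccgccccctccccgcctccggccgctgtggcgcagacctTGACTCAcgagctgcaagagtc
Ephb3 (chr16:21204545-21204794, plus strand): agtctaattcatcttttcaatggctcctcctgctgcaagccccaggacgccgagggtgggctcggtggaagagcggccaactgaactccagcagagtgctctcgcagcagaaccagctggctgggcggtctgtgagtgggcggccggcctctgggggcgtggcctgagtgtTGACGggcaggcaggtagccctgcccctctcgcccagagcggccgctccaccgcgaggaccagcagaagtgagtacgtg
Epha5 (chr5:84417383-84417632, minus strand): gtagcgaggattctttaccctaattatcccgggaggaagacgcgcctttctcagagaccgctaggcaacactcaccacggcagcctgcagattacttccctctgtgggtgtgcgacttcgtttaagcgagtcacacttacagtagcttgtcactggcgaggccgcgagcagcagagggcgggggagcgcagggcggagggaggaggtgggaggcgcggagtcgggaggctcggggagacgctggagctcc

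The tests were run over 10355 genes, with adjusted p under 0.05 as the threshold, and the 32 guidance genes were then counted. At 18/1 2 hr, 0 of 32 differed from unstimulated neurons (limma), and 0 had an unadjusted p under 0.05; of all genes, 0.0193% were called and 92 had an unadjusted p under 0.05. With array quality weights, whose estimation stopped before it converged, 7 guidance genes were called there (15.5% of all genes under the same weights), and by the methods' t-test without adjustment 1 (2.09% of all genes). At 18/1 5 hr, 9 of 32 differed, 6 higher and 3 lower, where 44.4% of all genes were called, 15.0% higher and 29.5% lower. At 90/5 2 hr, 3 of 32 were higher and 0 lower, where 6.97% of all genes were called, 3.58% higher and 3.39% lower. At 90/5 5 hr, 0 of 32 differed and 1 (*Nrp1*) had an unadjusted p under 0.05, where 0.0676% of all genes were called; the weights called 8 (24.9% of all genes), the methods' t-test 4 (5.52%) and a fit with the replicate number as a block 1 (4.54%). The shares of guidance genes called thus lay below the share of all genes at 18/1 5 hr and near it at 90/5 2 hr.

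Between patterns, 90/5 2 hr against 18/1 2 hr gave 3 of 32 guidance genes, all higher, where 4.96% of all genes were called, 2.66% higher and 2.31% lower. At 5 hr, 90/5 against 18/1 gave 9 of 32, 1 higher and 8 lower, where 45.4% of all genes were called, 29.6% higher and 15.8% lower. Within slide 2, 90/5 2 hr against 18/1 5 hr gave 1 of 32, *Epha7*, where 12.9% of all genes were called. With each sample centred on its median this count was much higher, and it also depended on the fit (values under the dependence on processing). These comparisons share samples, so their counts are not independent of one another. Because 18/1 5 hr and 90/5 2 hr shared slide 2, the 24 calls of guidance genes other than that of *Epha7* within slide 2 all came from comparisons of slide 2 with slide 1 or 3.

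The median log2 difference of the 32 guidance genes was -0.20, 0.23, 0.09 and -0.18 for 18/1 2 hr, 18/1 5 hr, 90/5 2 hr and 90/5 5 hr over unstimulated. Over all genes it was -0.00, -0.23, -0.08 and -0.01. For 90/5 over 18/1 it was 0.24 at 2 hr and -0.29 at 5 hr, against -0.07 and 0.23 over all genes. Without the probe labelled *Dcc* the medians of the list were -0.23, 0.18, 0.08 and -0.20 over unstimulated and 0.23 and -0.22 between patterns. These medians are descriptions of the list. With each sample centred on its median in place of the loess and quantile steps (median centring below), the median of all genes at 18/1 5 hr moved from -0.23 to -0.81, the share of calls that were higher from 33.7% to 8.73%, and the guidance genes called from 6 higher and 3 lower to 3 higher and 10 lower (13 of 32, where 52.6% of all genes were called). For 90/5 over 18/1 at 5 hr the same centring moved the median of all genes from 0.23 to 0.93, the share of calls that were higher from 65.2% to 92.6%, and the guidance genes from 1 higher and 8 lower to 10 higher and 3 lower (13 of 32, where 57.5% of all genes were called). After a correction for the GC content of the probes, those shares of higher calls were 48.1% and 51.6%.

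**Figure D2:**
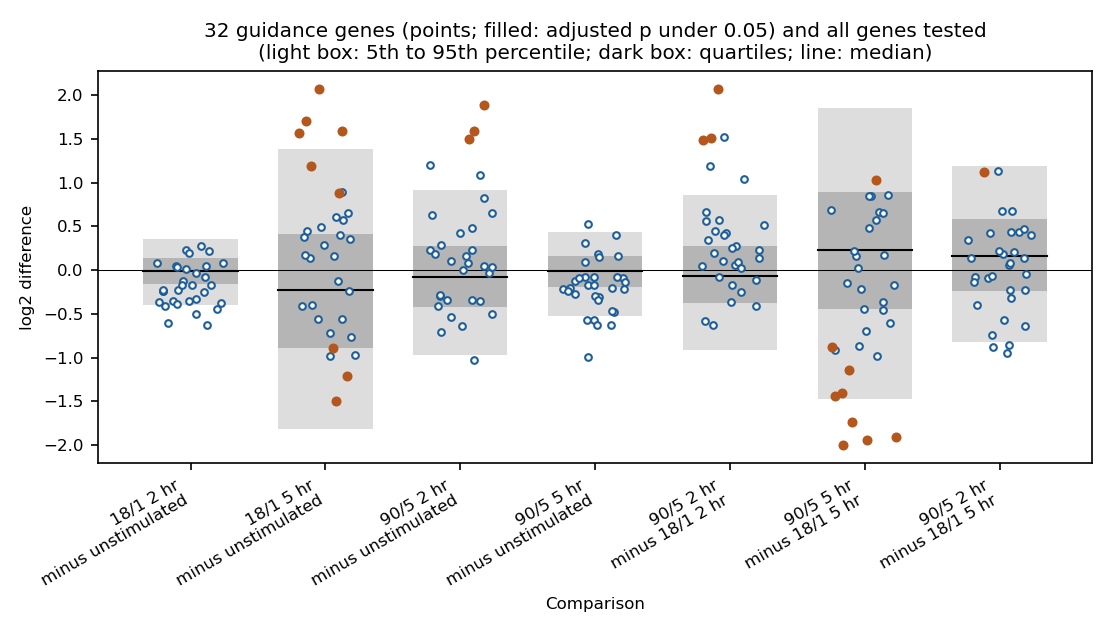
Log2 differences (vertical axis) of the 32 tested guidance genes (points, filled where the adjusted p was under 0.05) over the 5th to 95th percentile (light box), quartiles (dark box) and median (line) of all 10355 genes, for the 7 comparisons (horizontal axis). The boxes are tallest for 18/1 5 hr against unstimulated and 90/5 5 hr against 18/1 5 hr, and with quantile scaling 6 of 9 called genes lie above 0 in the former and 8 of 9 below 0 in the latter.

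**Figure D3:**
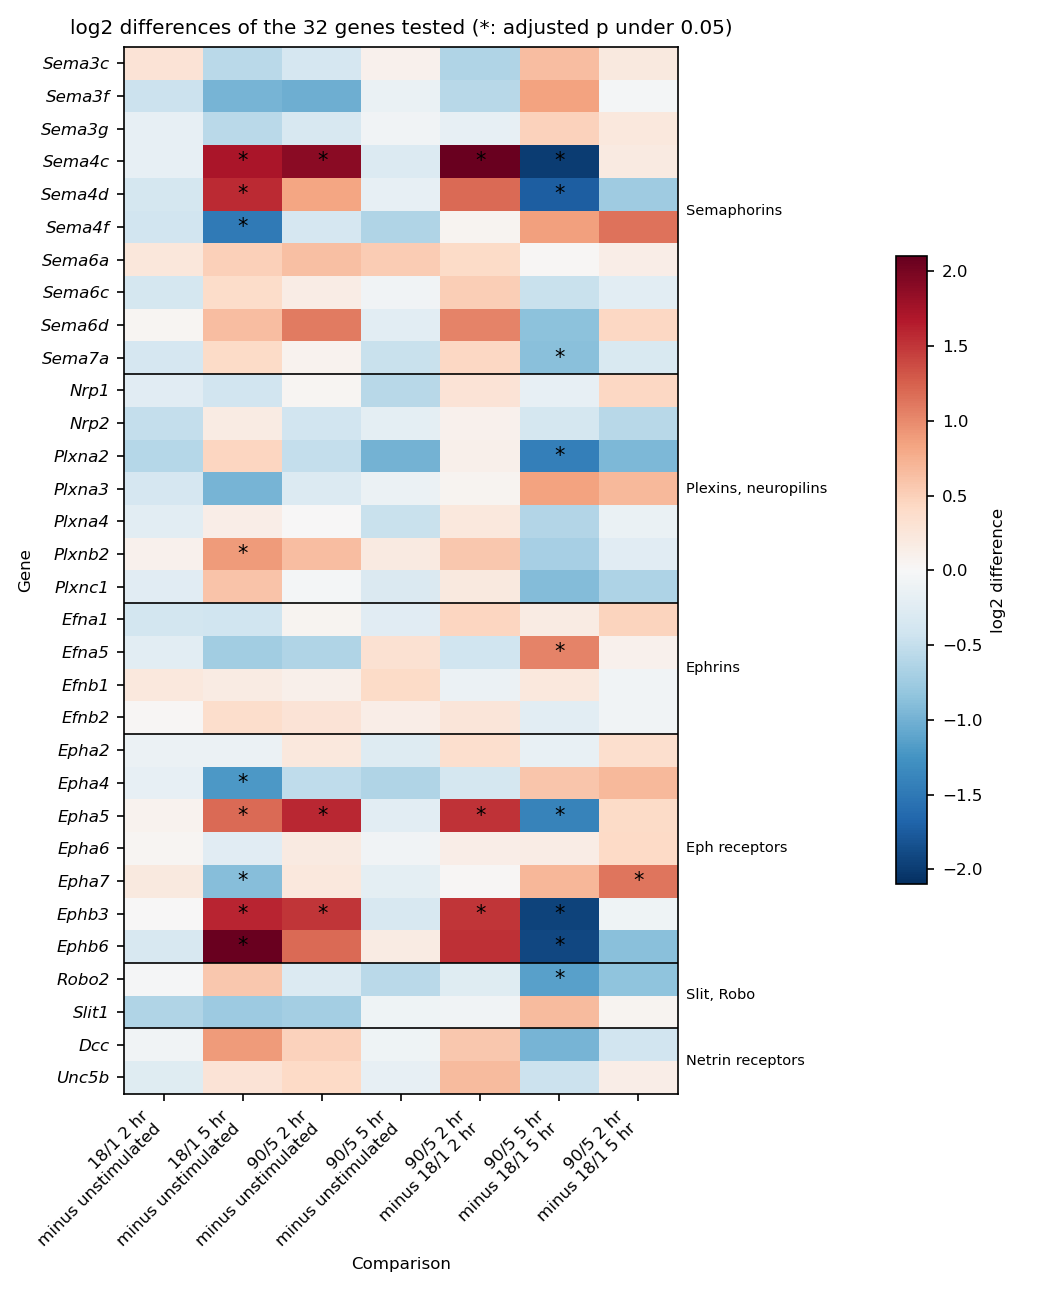
Log2 difference (colour scale) of each of the 32 genes (rows, by family) in the 7 comparisons (columns), with an asterisk for an adjusted p under 0.05. Asterisks lie in the 4 columns that set slide 2 against slide 1 or 3, apart from that of *Epha7* within slide 2.

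Among the semaphorins, *Sema4c*, a transmembrane ligand of plexin-B receptors, is shown first as the brightest probe of classes 4 to 7. It read 13.56, 14.50, 13.56 and 14.20 in unstimulated and 13.35, 14.61, 13.21 and 13.95 in 18/1 2 hr samples. In 18/1 5 hr it read 15.62 and 15.40 on array 5 and 16.15 and 15.48 on array 6, and in 90/5 2 hr 15.54 and 15.75 on array 7 and 16.22 and 15.88 on array 8. The 90/5 5 hr samples read 13.44, 14.04, 13.13 and 14.03. All 8 samples of slide 2 were above all 12 samples of the other slides. The probe was saturated in all 4 samples of 18/1 5 hr, so with quantile scaling it was at least 3.27-fold higher there than in unstimulated neurons (15.66 ± 0.34 against 13.95 ± 0.47, adjusted p = 0.0028) and at least 4.00-fold lower at 90/5 5 hr than at 18/1 5 hr (adjusted p = 0.00074). These bounds do not hold with median centring (below). With 3 of 4 samples saturated, 90/5 2 hr was 1.89 above unstimulated (SE 0.42, adjusted p = 0.0084) and 2.07 above 18/1 2 hr (SE 0.42, adjusted p = 0.0051), values that may be understated for that reason. Within slide 2 no difference is given, since both groups were saturated (4 of 4 and 3 of 4 samples). Within slide 1 the difference between 18/1 2 hr and unstimulated was -0.17 (SE 0.42, adjusted p = 1.00). Median centring ended the calls at 18/1 5 hr (0.84, adjusted p = 0.10) and for 90/5 over 18/1 at 5 hr (-0.93, adjusted p = 0.064). The rise at 90/5 2 hr was lost without array 1, 2 or 8 (1.97, 1.82 and 1.69, adjusted p = 0.10, 0.15 and 0.057), and that over 18/1 2 hr without array 4 (1.87, adjusted p = 0.16).

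*Sema4d*, another class 4 ligand that signals through plexin-B1, read 10.70, 11.04, 10.91 and 10.78 in unstimulated samples and 12.45, 12.79, 12.05 and 12.42 in 18/1 5 hr, with no overlap. It rose by 1.57 (SE 0.47, adjusted p = 0.0097) and was lower at 90/5 5 hr (10.06, 10.70, 11.36 and 10.64) than at 18/1 5 hr, with a difference of -1.74 (SE 0.47, adjusted p = 0.0047). Both calls were lost with median centring (0.97 and -1.0, adjusted p = 0.088 and 0.075). The rise was also lost without array 1 or 2 (1.58 and 1.55, adjusted p = 0.066 and 0.068) and after correction for probe GC content (1.14, adjusted p = 0.054), and the later difference without array 9 (-1.43, adjusted p = 0.060). In 90/5 2 hr the arrays parted, with 10.60 and 10.94 on array 7 and 12.24 and 12.94 on array 8. Its difference from unstimulated there was 0.82 (SE 0.47, adjusted p = 0.30). *Sema4f* went the other way, from 12.31, 12.73, 12.46 and 12.33 in unstimulated to 10.40 and 10.70 on array 5 and 11.20 and 11.55 on array 6 of 18/1 5 hr. It fell by 1.49 (SE 0.41, adjusted p = 0.0062), with no overlap. Without array 5 the difference was -1.08 (adjusted p = 0.059), without array 1 -1.43 (adjusted p = 0.065), and after correction for probe GC content -0.94 (adjusted p = 0.058). The other *Sema4f* probe (A_55_P1998431) was higher at 18/1 5 hr, with 8.55 and 8.91 on array 5 and 7.67 and 7.93 on array 6 against 6.49 to 6.76 in unstimulated samples. The direction thus depends on the probe. This other probe passed in 0 of 4 samples of 18/1 5 hr, was marked not uniform in 4 of 20 samples, and was not tested.

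*Sema7a*, a semaphorin anchored to the membrane by a lipid, was lower at 90/5 5 hr than at 18/1 5 hr (9.10 ± 0.34 against 9.97 ± 0.09, log2 difference -0.87, SE 0.28, adjusted p = 0.015). Its samples read 8.85, 8.93, 9.59 and 9.03 against 9.89 to 10.09, without overlap. After correction for probe GC content and with median centring the difference was -0.06 (adjusted p = 0.88 in both), without array 9 it was -0.66 (adjusted p = 0.16), and without replicate 4 of 90/5 5 hr -0.74 (adjusted p = 0.070). *Sema6d* stood at 1.09 in 90/5 2 hr over unstimulated (SE 0.37, adjusted p = 0.077) with no overlap of the samples, but its other probe (A_55_P2076861), outside the filter, stood at -0.53 there, also without overlap and not called, so the direction depends on the probe. The 3 class 3 semaphorins tested, *Sema3c*, *Sema3f* and *Sema3g*, passed the threshold in no comparison by the probes that passed in all samples. A second *Sema3c* probe (A_52_P87839) passed only within a condition. With every such probe tested, it was called at 18/1 5 hr over unstimulated (-1.42, adjusted p = 0.033) and for 90/5 over 18/1 at 5 hr (1.37, adjusted p = 0.037).

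*Sema3f*, which acts through neuropilin-2, is shown as the brightest probe of its class. It read 13.14, 13.12, 13.53 and 13.79 in unstimulated, 12.20, 12.87, 13.49 and 13.24 in 18/1 2 hr, and 12.21, 12.67, 12.28 and 12.50 in 18/1 5 hr. The 90/5 samples read 12.10, 12.76, 12.31 and 12.30 at 2 hr and 12.34, 13.13, 14.41 and 13.15 at 5 hr. Every sample of 18/1 5 hr and 90/5 2 hr lay below every unstimulated sample, with differences of -0.98 (SE 0.45, adjusted p = 0.081) and -1.03 (SE 0.45, adjusted p = 0.18). *Sema3a*, the classical repellent of sensory axons, stayed outside the filter, with 7.10 to 7.48 in unstimulated and 7.06 to 7.44 in 18/1 2 hr samples. In 18/1 5 hr its brighter probe read 6.48 and 6.34 on array 5 and 8.71 and 8.97 on array 6, so the 2 arrays of one condition lay on either side of the controls. Of the 4 spots there, 2 were marked not uniform, 2 fell below 2 times background, and 0 passed. It read 6.76 to 7.34 in 90/5 2 hr and 6.89 to 7.31 in 90/5 5 hr.

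**Figure D4:**
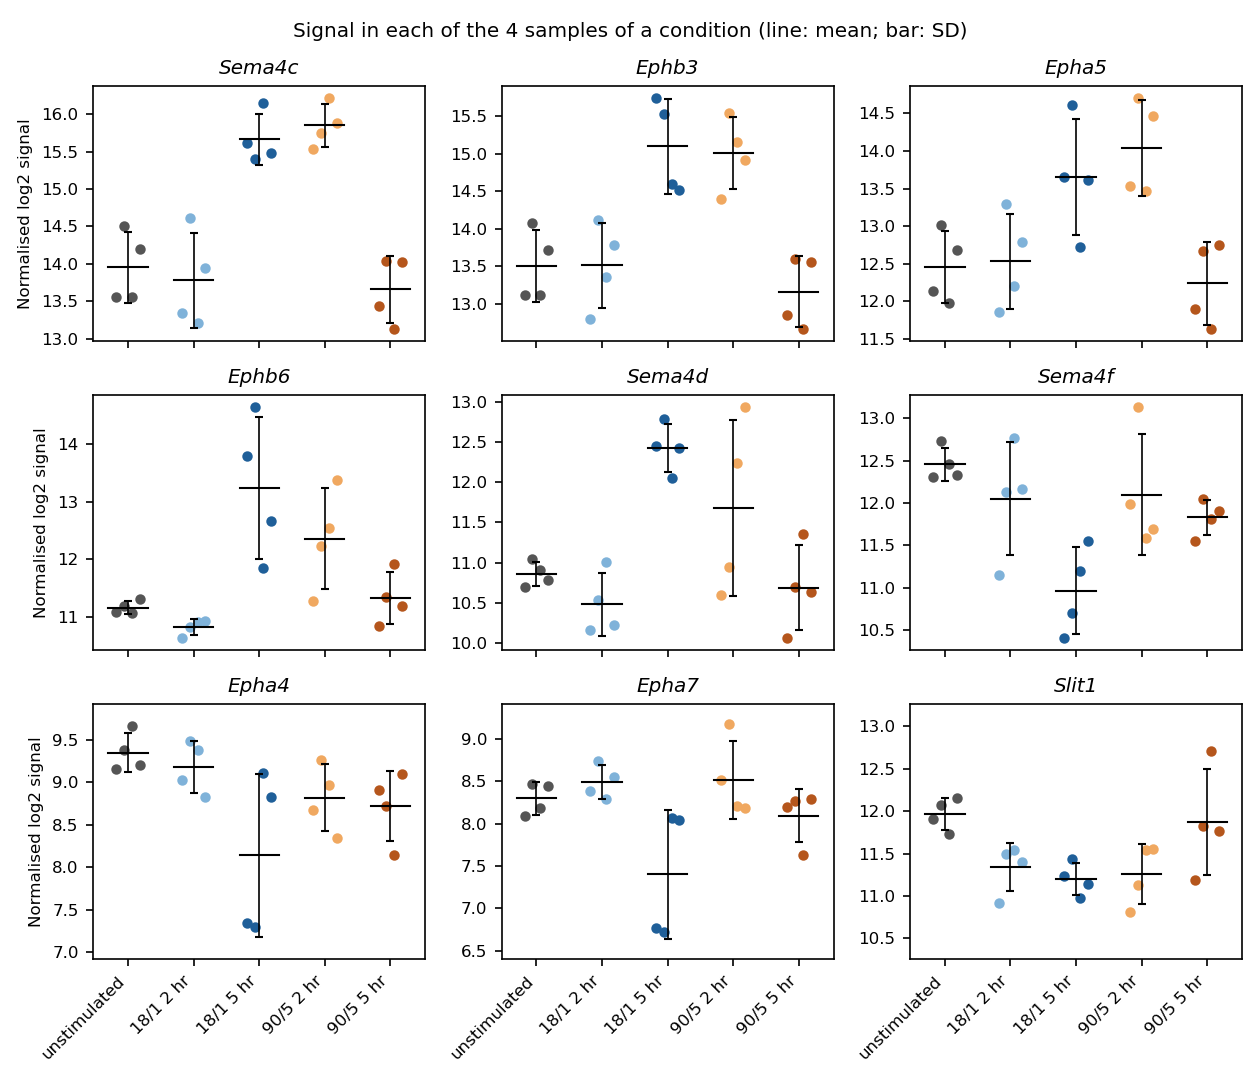
Normalised log2 signal (vertical axis, scaled for each gene) of 9 guidance genes in each of the 4 samples of the 5 conditions (horizontal axis), with the mean (line) and SD (bar). For *Sema4c* the 8 samples of 18/1 5 hr and 90/5 2 hr lie above the other 12, and *Epha4*, *Epha7* and *Ephb6* part into pairs by array in 18/1 5 hr.

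Of the 5 plexins tested, the main semaphorin receptors, 1 was called at 18/1 5 hr (44.4% of all genes) and 1 for 90/5 over 18/1 at 5 hr (45.4% of all genes). *Plxnb2*, a receptor for class 4 semaphorins, was 0.89 higher at 18/1 5 hr than in unstimulated neurons (12.86 ± 0.30 against 11.97 ± 0.47, SE 0.31, adjusted p = 0.023). The samples overlapped, with 12.91, 13.24, 12.51 and 12.76 against 11.43, 12.15, 11.79 and 12.52. Without array 5 the difference was 0.67 (adjusted p = 0.12), without array 1 or 2 it was 0.70 and 1.07 (adjusted p = 0.20 and 0.052), without replicate 1 of the unstimulated samples 0.78 (adjusted p = 0.051), and with median centring 0.45 (adjusted p = 0.26). *Plxna2* was lower at 90/5 5 hr than at 18/1 5 hr (-1.44, SE 0.50, adjusted p = 0.024), with 11.01, 11.88, 11.84 and 12 against 12.87, 13.42, 12.92 and 13.29. Without array 9 or 10 or replicate 4 of 90/5 5 hr that difference was -1.21, -1.68 and -1.41 (adjusted p = 0.14, 0.076 and 0.082), and with median centring -0.87 (adjusted p = 0.13).

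*Plxna4*, a receptor for class 3 semaphorins in sensory neurons, shown as the brightest plexin probe, read 13.78, 14.08, 13.96 and 13.85 in unstimulated samples. It read 12.79 to 14.27 in 18/1 2 hr, 13.47 to 14.35 in 18/1 5 hr, 13.23 to 14.36 in 90/5 2 hr and 12.55 to 14.21 in 90/5 5 hr. All conditions overlapped. *Plxna3* and *Plxnc1* passed in no comparison either. The co-receptors *Nrp1* and *Nrp2* were above background throughout and passed in none. *Nrp1* averaged 10.45 ± 0.20, 10.20 ± 0.31, 10.04 ± 0.10, 10.48 ± 0.27 and 9.87 ± 0.34 in unstimulated, 18/1 2 hr, 18/1 5 hr, 90/5 2 hr and 90/5 5 hr. *Nrp2* averaged 10.86 ± 0.21, 10.35 ± 0.47, 11.02 ± 0.14, 10.45 ± 0.24 and 10.66 ± 0.61 in the same order. The difference of *Nrp1* at 90/5 5 hr from unstimulated was -0.57 (SE 0.27), with an unadjusted p of 0.045 and an adjusted p of 1.00, and the samples overlapped.

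Among the Eph receptors, *Ephb3*, a receptor for B-type ephrins, read 13.11, 14.08, 13.11 and 13.72 in unstimulated and 12.80, 14.12, 13.35 and 13.78 in 18/1 2 hr samples. It read 15.75 and 15.53 on array 5, 14.60 and 14.52 on array 6, 14.40 and 15.55 on array 7, and 15.16 and 14.92 on array 8. The 90/5 5 hr samples read 12.85, 13.59, 12.66 and 13.55. As for *Sema4c*, every sample of slide 2 lay above every sample of slides 1 and 3. *Ephb3* rose by 1.60 at 18/1 5 hr (SE 0.41, adjusted p = 0.0037) and by 1.5 at 90/5 2 hr over unstimulated (SE 0.41, adjusted p = 0.029) and by 1.49 over 18/1 2 hr (SE 0.41, adjusted p = 0.037), and 90/5 5 hr differed from 18/1 5 hr by -1.94 (SE 0.41, adjusted p = 0.00078). Its probe was saturated in 3 of 4 samples of 18/1 5 hr and 1 of 4 of 90/5 2 hr, so these differences may be understated. Of the 27 alternatives run for each, 10 and 12 ended the calls at 90/5 2 hr, among them leaving out array 8 (1.47 and 1.46, adjusted p = 0.11 and 0.14). Over unstimulated it was also lost without array 1 or 2 (1.60 and 1.41, adjusted p = 0.22 and 0.28), and over 18/1 2 hr without array 3 or 4 (1.44 and 1.55, adjusted p = 0.30 and 0.27). Without array 2 the rise at 18/1 5 hr was also lost (1.5, adjusted p = 0.052). It was 1.06 without array 5 (adjusted p = 0.027) and 2.46 after correction for probe GC content (adjusted p = 0.00011), and the difference at 5 hr was -1.20 with median centring (adjusted p = 0.020), all still called. Within slide 2 its difference was -0.09 (SE 0.41, adjusted p = 0.91).

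*Ephb6*, an Eph receptor without kinase activity, read 11.09, 11.19, 11.07 and 11.31 in unstimulated samples. In 18/1 5 hr it read 13.78 and 14.64 on array 5 and 11.85 and 12.67 on array 6, all above the controls. It rose by 2.07 (SE 0.50, adjusted p = 0.0024), and by 1.1 without array 5 (adjusted p = 0.055). The difference of 90/5 5 hr from 18/1 5 hr was -1.91 (SE 0.50, adjusted p = 0.0042), with overlap, -0.93 without array 5 (adjusted p = 0.097) and -2.88 without array 6 (adjusted p = 3.6e-05). At 90/5 2 hr it read 11.28 and 12.23 on array 7 and 12.55 and 13.38 on array 8, and its difference from unstimulated was 1.20 (SE 0.50, adjusted p = 0.15). This *Ephb6* probe was saturated in 1 of the 20 samples, so a difference that includes that sample may be understated. The other *Ephb6* probe (A_55_P2108271) read 6.92 to 7.07 in unstimulated samples, 6.88 and 7.2 on array 5 and 6.57 and 6.57 on array 6. In 90/5 5 hr it read 7.09 to 7.17. The rise of *Ephb6* at 18/1 5 hr and the later difference thus depend on the probe. This other probe passed in no condition, was marked not uniform in 2 of 20 samples, and was not tested.

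*Epha5*, an EphA receptor of neurons, read 12.14, 13.02, 11.98 and 12.68 in unstimulated and 11.86, 13.29, 12.20 and 12.79 in 18/1 2 hr samples by the brightest of its 3 probes (A_55_P2062911). It read 13.65 and 14.61 on array 5, 12.72 and 13.62 on array 6, 13.53 and 14.71 on array 7, and 13.47 and 14.46 on array 8. The 90/5 5 hr samples read 11.90, 12.67, 11.63 and 12.75. By this probe it rose by 1.19 at 18/1 5 hr (SE 0.28, adjusted p = 0.0017), with overlap, by 1.59 at 90/5 2 hr over unstimulated (SE 0.28, adjusted p = 0.0011) and by 1.51 over 18/1 2 hr (SE 0.28, adjusted p = 0.0019), and 90/5 5 hr differed from 18/1 5 hr by -1.41 (SE 0.28, adjusted p = 0.00039), with overlap. In every condition the Cy5 samples of this probe read higher than the Cy3 samples of the same array. A second probe (A_55_P2100425) was 0.95 higher at 18/1 5 hr (SE 0.30, adjusted p = 0.014), whereas the third (A_55_P2062921) read 10.11, 10.24, 10.19 and 10.08 in unstimulated samples, 7.79 and 7.81 on array 5 and 9.76 and 10.07 on array 6, a difference of -1.30 (SE 0.51, adjusted p = 0.042). The direction of *Epha5* at 18/1 5 hr thus depends on the probe. With every probe tested that passed within a condition, the fall of that last probe was not called (SE 0.57, adjusted p = 0.081). The direction also depended on the probe in the other 3 comparisons: those other probes stood, in that order, at 0.20 and -0.75 for 90/5 2 hr over unstimulated and at 0.42 and -0.75 over 18/1 2 hr, none of them called, and at -1.05 (adjusted p = 0.0073) and 1.19 (adjusted p = 0.061) for 90/5 over 18/1 at 5 hr. By the methods' t-test, unadjusted, the brightest probe did not pass at 18/1 5 hr (1.28) or for 90/5 over 18/1 at 5 hr (-1.49), and after Benjamini-Hochberg adjustment it passed in none of these comparisons. Without array 2 the 90/5 2 hr difference of the brightest probe was 1.46 (adjusted p = 0.064), and without array 4 that from 18/1 2 hr was 1.47 (adjusted p = 0.060). Without array 5 this probe stayed called but stood at 0.71 at 18/1 5 hr (adjusted p = 0.030) and -0.93 for 90/5 over 18/1 at 5 hr (adjusted p = 0.0061).

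*Epha4*, a receptor for both ephrin classes, and *Epha7* were lower at 18/1 5 hr. *Epha4* read 9.16, 9.38, 9.66 and 9.20 in unstimulated samples against 7.34 and 7.30 on array 5 and 9.11 and 8.83 on array 6. *Epha7* read 8.09, 8.47, 8.18 and 8.44 against 6.77 and 6.72 on array 5 and 8.07 and 8.04 on array 6. For both genes array 6 was close to the controls and array 5 well below them. *Epha4* fell by 1.21 (SE 0.44, adjusted p = 0.031) and *Epha7* by 0.89 (SE 0.33, adjusted p = 0.032), without overlap. Without array 5 the differences were -0.38 and -0.24 (adjusted p = 0.45 and 0.52), and without array 6 -2.03 and -1.55 (adjusted p = 0.00022 and 0.00015). Leaving out array 1 or 2 also ended both calls, at -1.29 and -1.13 for *Epha4* (adjusted p = 0.11 and 0.15) and -0.91 and -0.88 for *Epha7* (adjusted p = 0.13 and 0.15), and *Epha7* was well above background in 2 of the 4 samples. With every probe tested that passed within a condition, the fall of this *Epha7* probe at 18/1 5 hr was not called (adjusted p = 0.052). The other 2 *Epha7* probes stood at -1.21 (adjusted p = 0.021) and 0.21 (not called), so the direction of this fall depends on the probe. The call of *Epha7* within slide 2, 1.12 higher at 90/5 2 hr than at 18/1 5 hr (SE 0.33, adjusted p = 0.031), was 0.46 without array 5 (adjusted p = 0.32), 1.77 without array 6 (adjusted p = 0.00015) and 0.79 without array 7 (adjusted p = 0.31). Its other 2 probes stood at 0.36 and -0.58 there and were not called, so the direction depends on the probe, and with every probe tested that passed within a condition the first had an adjusted p of 0.051. *Epha2* and *Epha6* passed in no comparison, and *Epha1*, below the filter, read 6.66 to 7.36 over all 20 samples.

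Of the ephrins, the ligands of these receptors, *Efna5* was 1.03 higher at 90/5 5 hr than at 18/1 5 hr (SE 0.33, adjusted p = 0.015). Its samples read 10.86, 11.37, 11.59 and 11.56 against 9.87 and 9.98 on array 5 and 10.78 and 10.62 on array 6, without overlap. In unstimulated samples it read 11.01, 11.02, 11.15 and 10.95. Without array 5 the difference was 0.65 (adjusted p = 0.12), without array 10 it was 0.80 (adjusted p = 0.18), and without replicate 4 of 90/5 5 hr it was 1.00 (adjusted p = 0.056). With median centring it was 1.92 (adjusted p = 0.00025). *Efna1*, *Efnb1* and *Efnb2* passed in no comparison. *Efna1*, the brightest ephrin-A probe, averaged 12.09 ± 0.25, 11.70 ± 0.24, 11.68 ± 0.13, 12.15 ± 0.13 and 11.86 ± 0.11 from unstimulated to 90/5 5 hr. *Efnb2*, the brightest ephrin-B probe, averaged 10.37 ± 0.24, 10.40 ± 0.42, 10.73 ± 0.34, 10.65 ± 0.38 and 10.51 ± 0.37.

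*Slit1* was the one Slit tested. It read 11.91, 12.07, 11.73 and 12.15 in unstimulated samples and 10.92, 11.49, 11.54 and 11.40 in 18/1 2 hr, on the same slide. It read 11.24, 11.44, 10.98 and 11.14 in 18/1 5 hr, 10.81, 11.13, 11.54 and 11.55 in 90/5 2 hr, and 11.19, 11.82, 12.71 and 11.76 in 90/5 5 hr. All 12 samples of the first 3 stimulated conditions lay below all 4 unstimulated samples, and the 90/5 5 hr samples overlapped with them. The differences from unstimulated were -0.62, -0.76, -0.71 and -0.10 (SE 0.35), and none passed the threshold (adjusted p = 1.00, 0.083, 0.24 and 1.00). That at 18/1 2 hr, within slide 1, had an unadjusted p of 0.090, and it was the largest in size of the 32 guidance genes in that comparison. *Slit2*, outside the filter, read 6.73 to 8.0 over all samples. *Slit3* read 8.89 and 9.01 on array 5 and 6.85 to 7.34 on the other 9 arrays, with 1 of its 4 spots in 18/1 5 hr marked not uniform.

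*Robo2*, the one Robo receptor tested, read 11.13, 10.65, 10.28 and 10.40 in unstimulated and 10.71, 10.87, 10.53 and 10.23 in 18/1 2 hr samples by its brightest probe (A_55_P2083919). It read 11.57, 10.85, 11.30 and 11.04 in 18/1 5 hr, 10.51, 9.94, 10.97 and 9.92 in 90/5 2 hr, and 10.67, 10.47, 9.14 and 9.90 in 90/5 5 hr. By this probe 90/5 5 hr differed from 18/1 5 hr by -1.14 (SE 0.40, adjusted p = 0.023), without overlap, by -0.62 without array 10 (adjusted p = 0.26) and by -0.20 with median centring (adjusted p = 0.73). The other 2 probes were higher in the same comparison, by 0.73 (SE 0.25, adjusted p = 0.022) and 1.21 (SE 0.33, adjusted p = 0.0055). The direction of *Robo2* therefore depends on the probe. *Robo1*, outside the filter, read by its brighter probe 8.16 to 8.55 in unstimulated, 7.89 to 8.70 in 18/1 2 hr, 7.07 to 8.12 in 18/1 5 hr, 7.25 to 8.58 in 90/5 2 hr and 7.92 to 8.06 in 90/5 5 hr.

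None of the 4 netrins was above the filter in all samples. *Ntn3* read 8.33 to 9.0 in unstimulated samples, 10.20 and 10.84 on array 5 and 7.79 and 7.81 on array 6. Of its 4 spots in 18/1 5 hr, 2 were marked not uniform. *Ntn1* and *Ntn4* passed in no condition. The probe labelled *Dcc* that passed (A_55_P1961761) lies on chromosome 7 (chr7:68417162-68417221, minus strand, mm9) by the files' own coordinates, whereas the other 2 *Dcc* probes lie on chromosome 18, and these read 6.08 to 7.0 and were well above background in 0 of 20 samples. The passing probe read 14.59 to 15.91 in unstimulated, 14.51 to 15.62 in 18/1 2 hr, 15.62 to 16.30 in 18/1 5 hr, 15.19 to 16.01 in 90/5 2 hr and 14.41 to 15.96 in 90/5 5 hr. It was saturated in all samples of 18/1 5 hr and 90/5 2 hr and passed the threshold in no comparison. Its values cannot be read as those of *Dcc*. *Unc5b* passed in no comparison, with differences from unstimulated of -0.25, 0.28, 0.42 and -0.16 (SE 0.27).

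Genes whose probes passed in all samples of at least 1 condition, but not in all 20, were tested with that looser filter over 18744 genes. Of the 27 such guidance genes, 15 reached 2 times background in all 20 samples and missed the first filter only through spots that were not uniform, and 12 fell below it in at least 1 sample. Their calls are given as values only. At 18/1 5 hr, 8 of the 27 were called, 4 higher and 4 lower (7, with 3 higher, without *Unc50*), where 36.8% of all genes were called, 13.5% higher and 23.3% lower. *Plxna1* (2.36, SE 0.51), *Sema4a* (2.04, SE 0.57), *Efna2* (1.29, SE 0.23) and *Unc50* (1.02, SE 0.30) were higher. *Efna3* (-1.62, SE 0.29), *Unc5c* (-1.06, SE 0.30) and *Efnb3* (-0.64, SE 0.20) were lower, and *Sema5b*, well above background in 0 of 4 samples of 18/1 5 hr, was at least 1.73-fold lower. The *Sema5b* probe passed in all 4 unstimulated, 90/5 2 hr and 90/5 5 hr samples, but in 1 of 4 of 18/1 5 hr. It thus entered the test through groups where it is higher. Its direction, here and below, was partly set by the filter, though it stays in the counts. *Efna3* was well above background in 2 of 4 samples of 18/1 5 hr and of 90/5 2 hr, and *Efnb3* in 1 of 4 and 3 of 4, so their differences from these groups, here and below, may be understated. In 18/1 5 hr all 4 spots of *Plxna1* and of *Efna2* were marked not uniform, as were 3 of 4 for *Sema4a*. So were 2 of 4 for *Unc5c* and 1 of 4 for *Unc50*, *Efna3* and *Sema5b*, so these values rest on spots of that quality. *Plxna1* read 9.12 to 9.52 in unstimulated samples, 12.29 and 12.94 on array 5 and 10.30 and 11.23 on array 6. *Sema4a* also parted by array, with 9.43 to 9.56 in unstimulated samples, 12.24 and 13.02 on array 5 and 10.09 and 10.75 on array 6. *Unc5c*, a netrin receptor for repulsion, read 8.99 to 9.30 in unstimulated, 8.56 to 9.28 in 18/1 2 hr, 7.49 to 8.63 in 18/1 5 hr, 8.02 to 8.19 in 90/5 2 hr and 8.83 to 9.0 in 90/5 5 hr. Its other probe (A_66_P129566) read 7.04 to 7.12 in unstimulated, 7.39 to 7.87 in 18/1 5 hr and 6.93 to 7.15 in 90/5 5 hr. The direction of *Unc5c*, here and below, thus depends on the probe. This other probe passed in no condition, was marked not uniform in 3 of 20 samples, and was not tested.

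For 90/5 over 18/1 at 5 hr, 9 of the 27 were called, 4 higher and 5 lower (8, with 4 lower, without *Unc50*), where 38.2% of all genes were called, 23.9% higher and 14.3% lower. *Efna3* (2.01), *Unc5c* (0.90), *Efnb3* (0.56) and *Sema5b* (at least 2.35-fold) were higher. *Plxna1* (-2.48), *Sema4a* (-1.93), *Efna2* (-1.53), *Sema5a* (-1.26) and *Unc50* (-0.98) were lower. The *Sema5b* probe parted by array in 90/5 5 hr, with 8.34, 8.68, 7.48 and 7.43 in replicate order. All 4 lay above the 18/1 5 hr samples (6.3 to 6.75), but the size of the difference was uneven between the arrays. Another *Sema5b* probe (A_55_P1994112) went the other way between these arrays, with 6.53, 6.6, 9.08 and 8.99. It passed in no condition and was not tested. The *Sema5a* probe was saturated in 1 of 4 samples of 18/1 5 hr, so its difference may be understated, and 1 of its 4 spots there was marked not uniform. At 90/5 2 hr over unstimulated *Efna3* alone was called (-1.04, adjusted p = 0.040), where 5.06% of all genes were called; it read 8.10 and 8.23 on array 7 and 6.85 and 6.80 on array 8. Within slide 2, 90/5 2 hr against 18/1 5 hr called *Efna2* (-1.28, adjusted p = 0.0031) and *Efnb3* (0.65, adjusted p = 0.049), where 8.88% of all genes were called. *Efna2* read 8.92, 8.94, 8.68 and 8.94 in 18/1 5 hr against 7.48, 7.59, 7.65 and 7.66 in 90/5 2 hr, with 7.47 to 7.72 in unstimulated neurons, and its 4 spots of 18/1 5 hr were those marked not uniform. With the spread estimated from these 2 conditions alone, 0 of 10355 genes that passed in all samples were called within slide 2.

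Probes of one gene were then set side by side, leaving out a *Plxna2* probe that lies on chromosome 14. For 10 genes with 23 probes that passed within a condition, the range of log2 differences between probes of a gene had a median of 0.10 at 18/1 2 hr and 0.30 at 90/5 5 hr over unstimulated. It was 1.05 at 18/1 5 hr and 0.68 at 90/5 2 hr. At 18/1 5 hr, 6 of the 10 genes had probes on both sides of 0, and 9 of the 23 probes were called, where 37.0% of all probes were. The *Epha5* probes stood at 1.19, 0.95 and -1.30, the *Robo2* probes at 0.57, -0.75 and -0.90, the *Sema6c* probes at 0.38 and -1.57, the *Sema6d* probes at 0.65 and -0.59, and the *Epha7* probes at 0.21, -1.21 and -0.89. *Efna3* (-1.62 and -0.77), *Sema3c* (-0.56 and -1.42) and *Plxnd1* (-1.06 and -0.90) had probes of one direction. Whether the probes read different transcripts of the gene was not tested.

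**Figure D5:**
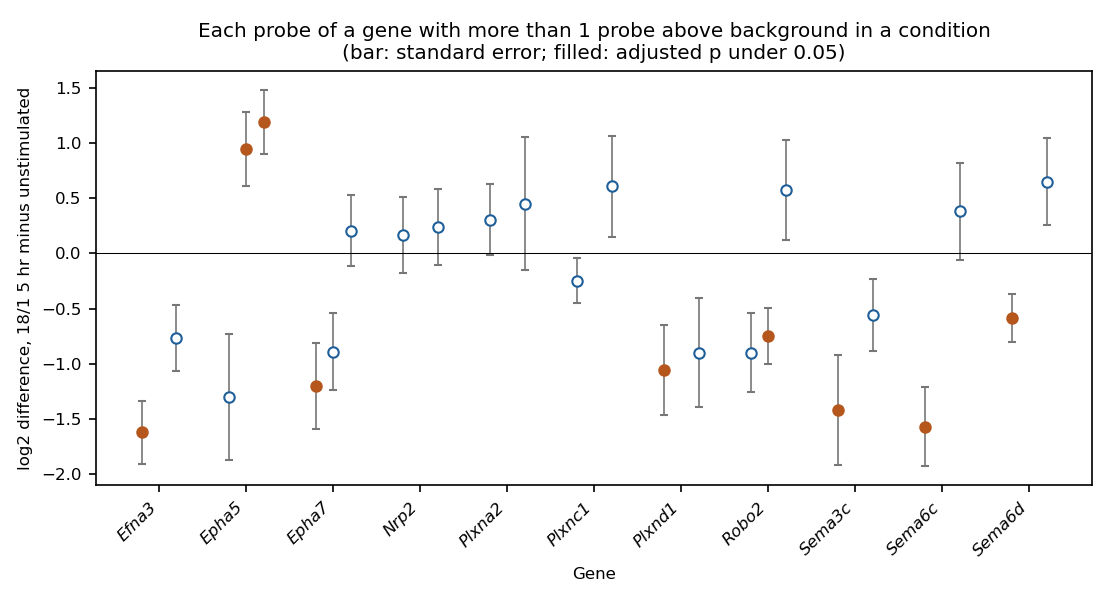
Log2 difference of 18/1 5 hr from unstimulated (vertical axis) for each probe of the genes with more than 1 probe that passed within a condition (horizontal axis), with the standard error (bar) and filled points for an adjusted p under 0.05. For *Epha5*, *Epha7*, *Plxnc1*, *Robo2*, *Sema6c* and *Sema6d* the probes lie on both sides of 0.

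The 2 arrays of a condition also differed by condition. In 18/1 5 hr, 7 of the 32 guidance genes (*Epha4*, *Epha7*, *Ephb3*, *Ephb6*, *Plxna3*, *Sema6a* and *Sema6d*) differed by more than 1 log2 unit between arrays 5 and 6, as did 17.9% of all genes. In 90/5 2 hr, 3 of 32 (*Ephb6*, *Plxnc1* and *Sema4d*) did so, as did 12.4% of all genes. In 90/5 5 hr it was 3 of 32 (*Plxna4*, *Robo2* and *Sema3f*) and 2.15% of all genes, and in unstimulated and 18/1 2 hr 0 of 32, with 0.251% and 0.232% of all genes. The fit took the array as a block, with a correlation of 0.529 between samples of one array.

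The change in pattern effect between times was tested as the difference of 90/5 over 18/1 at 5 hr less that at 2 hr, which sets slide 3 against slide 2 at 5 hr and slide 2 against slide 1 at 2 hr. It was called for 11 of the 32 guidance genes, where 44.8% of all genes were called.

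A list of 58 further genes of guidance signalling holds mostly effectors inside the cell, with some further ligands, receptors, co-receptors and adhesion molecules, and 42 of them were tested. At 18/1 2 hr and 90/5 5 hr 0 of the 42 differed from unstimulated, and 1 had an unadjusted p under 0.05 in each. At 18/1 5 hr 15 of 42 differed, 7 higher and 8 lower (44.4% of all genes), at 90/5 2 hr 3 (6.97% of all genes), and for 90/5 over 18/1 at 5 hr 13 (45.4% of all genes). *Dpysl5*, of the collapsin response mediator family that relays semaphorin signals, rose by 2.00 at 18/1 5 hr and by 1.93 at 90/5 2 hr over unstimulated (SE 0.38). The actin regulator *Vasp* fell by 1.89 and 1.01 (SE 0.26). The kinase *Pak1*, a target of Rac, fell by 2.25 (SE 0.38) at 18/1 5 hr. *Enah* rose by 1.19 (SE 0.27) and the exchange factor *Arhgef12* by 1.23 (SE 0.36), whereas the adhesion molecule *L1cam* fell by 1.33 (SE 0.36). The co-receptor *Boc* rose by 0.87 and 1.05 (SE 0.31) at 18/1 5 hr and 90/5 2 hr. These differences set slide 2 against slide 1. Within slide 2, 4 of the 42 were called, 3 higher and 1 lower (12.9% of all genes), among them *Pak1* (1.28, SE 0.38) and *Vasp* (0.88, SE 0.26) higher and *Arhgef12* (-1.42, SE 0.36) lower at 90/5 2 hr than at 18/1 5 hr.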

How the data were processed

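RNA from 20 samples of cultured mouse neurons was hybridised to 10 two-colour Agilent 4x44k arrays. The deposited files hold scanned intensities of each spot and its background in both colours, extracted by the authors with Feature Extraction (10.7.1.1 for slide 1 and 10.7.3.1 for slides 2 and 3 per the file headers; probe positions on mm9), neither background-subtracted nor normalised in the columns used. From these, limma 3.58.1 in R 4.3.3 was used for normexp background correction (offset 50), loess within arrays with control spots at weight 0, and Aquantile between arrays. A spot had to reach 2 times background and be uniform in each of the 20 samples, spots of a probe were averaged, and the probe with the highest mean signal was kept for each gene name, giving 10355 genes. A looser filter asked this of the 4 samples of any 1 condition. limma fitted the mean of each condition with a colour term and the array as a random block (correlation 0.529). All p-values were adjusted over all genes by Benjamini-Hochberg, and a gene was called at an adjusted p under 0.05. The number of arrays limits the precision. A probe saturated in all samples of a group gives a bound, with saturated spots at their values.

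The members and gene lists were chosen with earlier results of these data known. Full values are given for members called in a comparison (up to 5 higher and 5 lower with all 4 samples on one side, and the overlapping ones), for the brightest member of each family and for *Slit1*, *Epha1*, *Nrp1*, *Nrp2*, *Plxna4*, *Sema3a*, *Robo1*, *Robo2*, *Dcc* and *Unc5c*. The methods' t-test was run as an alternative, beside other scalings, filters, blocks and weights, and each sample and array left out in turn. In each array 35 further columns of per-colour values were not used. The code was tested on simulated data.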

Additional observations from a re-analysis of the deposited data

Results flagged for a closer look

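Of 65 groups of 4 samples (13 guidance genes in 5 conditions), 3 held a sample far from the other samples of its group, where chance gives about 1 in 20. *Epha7* read 7.63 in replicate 3 of 90/5 5 hr, *Plxna2* read 11.01 in replicate 1 of 90/5 5 hr, and *Efna5* read 10.06 in the Cy5 sample of array 8 of 90/5 2 hr.

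The effect of pattern (90/5 less 18/1) differed between 5 hr and 2 hr by an interaction term in limma for 8 of these 13 genes. The 13 are the genes called in at least 1 comparison, some of which make up this term, so that count says nothing about them; of all genes 44.8% were called, and of the 32 guidance genes 11. The change was 1.45 for *Efna5*, -2.92 for *Epha5*, -3.43 for *Ephb3*, -3.43 for *Ephb6*, -1.27 for *Plxnb2*, -4.07 for *Sema4c*, -2.93 for *Sema4d* and -1.30 for *Sema7a*. For *Epha5* this is the brightest probe (A_55_P2062911), and its other 2 probes gave 1.94 (A_55_P2062921) and -1.47 (A_55_P2100425), not tested, so the sign depends on the probe. The *Ephb6* value is that of 1 probe, since its other probe passed in no condition and was not tested. The *Sema4c* probe was saturated in all samples of 18/1 5 hr and in 3 of 4 of 90/5 2 hr, and that value takes saturated spots at their readings, so the size may be understated. At each time the term sets slide 2 against another slide, so time, pattern and slide cannot be told apart in it.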

How the results depend on the processing

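Of the log2 differences of called guidance genes recomputed under each alternative, 563 kept direction and call, 127 lost the call and 0 reversed. Each gene was followed by the probe of the main fit wherever that probe was still tested. Opposite directions of other probes of the same gene, as for *Epha5*, *Robo2* and *Epha7*, therefore could not count as reversals. The alternatives also share most samples. The causes were not tested. Counts of the 32 guidance genes called (0 for 18/1 2 hr, 9 for 18/1 5 hr, 3 for 90/5 2 hr and 0 for 90/5 5 hr over unstimulated, 3 for 90/5 over 18/1 at 2 hr, 9 at 5 hr, and 1 for 90/5 2 hr over 18/1 5 hr) are given with the share of all genes called under the same setting in brackets. With the filter within a condition, which tests 59 guidance genes in place of 32, 15 (36.8%) were called at 18/1 5 hr, 16 (38.2%) for 90/5 over 18/1 at 5 hr and 2 (8.88%) within slide 2. With no filter, of 71 they were 15 (25.7%), 14 (27.2%) and 2 (6.24%), with 1 (1.63%) at 90/5 2 hr over unstimulated and 1 (1.32%) over 18/1 2 hr. Leaving out saturated probes, of 27, gave 1 (4.94%) and 1 (2.95%) in those last comparisons. Without the array block the counts were 17 (59.2%) at 18/1 5 hr, 7 (22.2%) at 90/5 2 hr, 8 (17.6%) for 90/5 over 18/1 at 2 hr, 20 (59.9%) at 5 hr and 6 (33.0%) within slide 2. With array quality weights (not converged) they were 7 (15.5%), 15 (54.5%), 5 (14.5%) and 8 (24.9%) over unstimulated, 7 (12.04%) and 19 (56.1%) between patterns. Fitting only the conditions compared gave 5 (3.44%) for 90/5 over 18/1 at 2 hr and 0 (0%) within slide 2. Within slide 2 the count was 10 (46.9%) with median centring, 0 (0%) with means of arrays and 0 (7.82%) with the probe GC correction, which was chosen after seeing the data. The methods' t-test, unadjusted, gave 1 (2.09%) at 18/1 2 hr, 7 (20.5%) at 90/5 2 hr, 4 (5.52%) at 90/5 5 hr, 7 (16.9%) for 90/5 over 18/1 at 2 hr and 3 (16.6%) within slide 2, and after Benjamini-Hochberg 0 (0.599%) at 90/5 2 hr over unstimulated, 0 (0%) over 18/1 2 hr and 0 (0%) within slide 2.

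Leaving out 1 sample or array gave 4 (array 1, 2 or 5; 24.8%, 26.1% and 36.9%) to 15 (array 6, 54.7%) at 18/1 5 hr, 0 (array 2, 0.840%) to 6 (array 7, 27.0%) at 90/5 2 hr, 0 (array 4, 0.773%) to 7 (array 7, 24.6%) for 90/5 over 18/1 at 2 hr, 6 (90/5 5 hr replicate 4, 37.7%) to 17 (array 6, 55.1%) at 5 hr, and 0 (array 7 among others, 0.551%) to 6 (array 6 or 8, 34.4% and 33.5%) within slide 2.

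With the replicate number as a block, over the 12 samples whose number is settled, 0 guidance genes were called at 18/1 2 hr (7 of all genes) and 1, *Plxna2*, at 90/5 5 hr (470 of all genes), against 0 (6) and 0 (315) in the same samples without the block. Same-numbered samples correlated at -0.053 to 0.716 in their deviations from group means and others at -0.498 to 0.488, and 10 of 12 were closest on average to their own number, a hint from the data. The labels tie no number to a shared culture or day, and not every same-numbered pair exceeded 0.1, so the numbers were not taken as pairing.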
